A study of Rattus norvegicus with 6 samples.

Results

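Amino acid transporter genes of the SLC1, SLC3, SLC7, SLC36, SLC38 and SLC43 families were followed in H9c2 cells after knockdown of the long non-coding RNA Tug1. Members were all genes of the count table with a symbol of these families, except Slc7a11, which was left out by rule. This gave 41 genes of 40456 in the table, and they were placed in classes by the substrates they are known to carry. H9c2 is an established line of rat heart myoblasts, and all 6 libraries came from wild-type cells of this single line. Per the labels' protocols, every culture was kept for 5 days in medium with 1% serum and 1 µM retinoic acid and received 25 nM of a gapmer for 24 h. Gapmers are antisense oligonucleotides with a DNA centre, through which RNase H degrades the paired RNA. The groups were 3 negative control gapmer libraries and 3 Tug1 gapmer libraries. Both gapmers had 16 bases, given here 5′ to 3′ as the labels' protocols list them, because they are the only stated difference between the groups.
Tug1 gapmer: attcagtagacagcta
Negative control gapmer: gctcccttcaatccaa

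Amino acids enter cells through carriers with distinct substrates and driving forces. The heavy chain Slc3a2 (CD98) is a glycoprotein that brings SLC7 light chains such as Slc7a5 to the plasma membrane, where they exchange one amino acid for another. Sodium-driven carriers such as the SLC38 system A members load the cell with small neutral amino acids, and SLC36 and some SLC38 members work at the lysosome, where amino acid supply is reported to the growth kinase complex mTORC1. In muscle cells these carriers supply protein synthesis, and several of them are textbook targets of the transcription factor ATF4, which is made when amino acids are short or the endoplasmic reticulum is stressed.

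Total counts ran from 12978548 to 13544337 per library, and 1 CPM (the unit of counts scaled to library size, here by TMM) stood for 12.9 to 13.8 counts. Library values are given in the order of replicates 1, 2 and 3 of a group. Tug1 itself was at 54.7, 52.0 and 55.4 CPM in the controls, against 11.9, 11.2 and 12.5 CPM after knockdown, so the libraries followed their labels. The labels call the cells cardiomyocytes. Of 10 cardiomyocyte markers, 8 had at most 4 counts in any library, among them Myh6, Tnni3 and Nkx2-5. The other 2 had enough counts to be tested. Tnnt2 had 4332 to 6051 counts per library and was called higher (0.24), while Actn2 had only 11 to 24 counts. All 8 skeletal muscle markers had enough counts to be tested, though Myh8 had only 8 to 21 per library. The summed level of the skeletal muscle markers was 761 to 770 CPM in controls and 1137 to 1178 CPM after knockdown, with 6 of the 8 markers called higher and Myod1 called lower (-0.32). The summed level of 5 fibroblast markers was 36897 to 38613 CPM in controls and 31998 to 34679 CPM after knockdown, where Col1a1 (-0.23) and Thy1 (-0.40) fell and Dcn (0.57) rose. Of the leukocyte markers, Cd68 rose by 1.09 and Ptprc had 0 counts, and the endothelial and epithelial markers had at most 2 counts in a library. The part of these markers in the transporter results was not tested. In bulk RNA, fewer cells of a type and less RNA per cell cannot be told apart.

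Of the 41 members, 22 had enough counts to be tested and 14 of these were called changed at an adjusted p under 0.05 (edgeR's quasi-likelihood test), 7 lower and 7 higher. That is 63.6% of the tested members, near the 61.7% of all 14216 tested genes that passed, so the share itself says nothing particular about these families. Of all tested genes, 30.9% were called lower and 30.8% higher. By family, among the 9 tested SLC1, SLC3 and SLC7 members 6 fell and 0 rose, while among the 11 tested SLC36 and SLC38 members 6 rose and 0 fell. The SLC43 family held 1 member of each direction. This pooling of families was chosen with the values known. Of the members that rose, Slc38a6 and Slc38a8 overlap genes called higher on the other strand, a limit given below. With an offset for genomic span, Slc1a4, Slc36a1 and Slc38a4 were called lower, Slc38a7 was called higher and Slc38a10 was no longer called. The call of Slc38a2 was lost without control replicate 2 and at an adjusted p threshold of 0.01. The median log2 fold change of the tested members was 0.08 (all tested genes 0.00) and the median absolute value 0.42 (all tested genes 0.34). Positive log2 fold changes stand for higher values with the Tug1 gapmer.

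**Figure D1:**
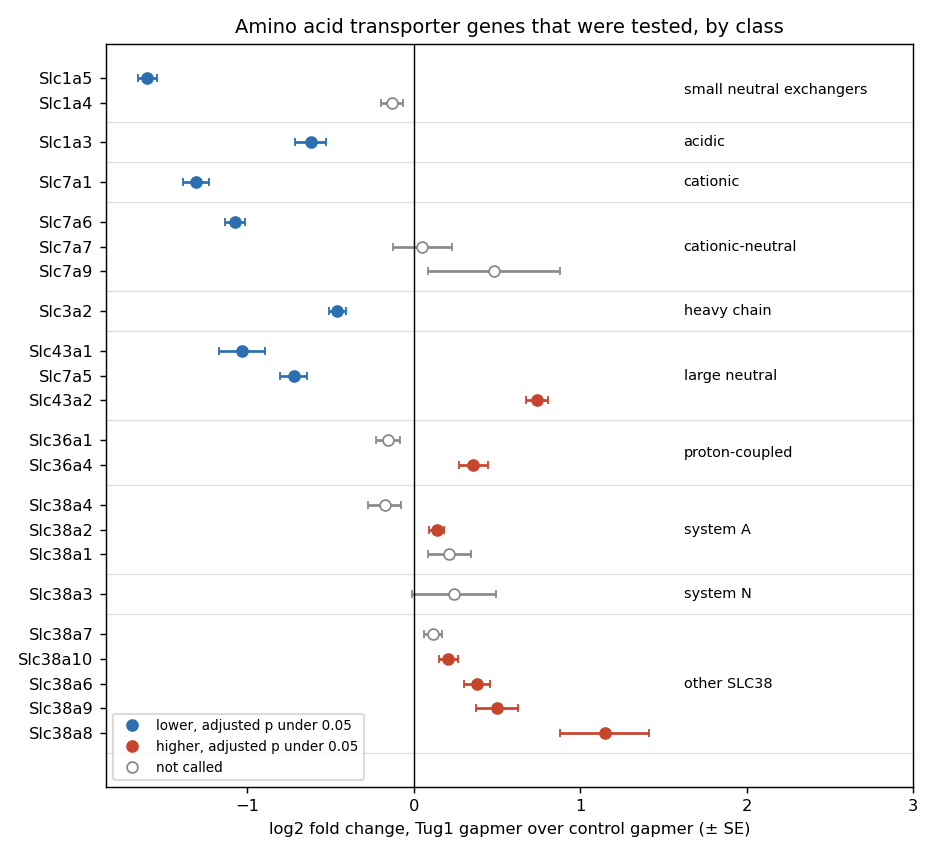
Log2 fold change with its SE (x axis) of each of the 22 tested members (y axis), grouped by class, filled blue or red where the adjusted p was under 0.05. Slc1a5 lies farthest to the left at -1.60 and Slc38a8 farthest to the right at 1.15.

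The control and knockdown libraries did not overlap for all 14 called members and for 0 of the 8 others, against 65.6% of all tested genes without overlap. A call together with a log2 change of 0.5 or more in size was found for 9 of the 22 tested members, against 31.0% of all tested genes. Of these, Slc38a9 was only just past the limit at 0.5001, and was under it with DESeq2 size factors (0.497). Slc1a5, Slc7a1, Slc7a6 and Slc43a1 were called lower and past a log2 fold change of -1 (5.21% of all tested genes were called and past it). On the other side only Slc38a8 was past 1 among the members, as 4.59% of all tested genes were. No tested member reached the expression filter in all libraries of only 1 group.

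The heavy chain Slc3a2, the shared partner of the SLC7 light chains, was at 457, 437 and 398 CPM in the controls, against 295, 332 and 313 CPM after knockdown. Every knockdown library was below every control library. The mean went from 430.4 ± 29.7 to 313 ± 18.3 CPM (SD, n = 3), or by -0.46 on the log2 scale (SE 0.0524, edgeR adjusted p 8.20e-08). Its kidney counterpart Slc3a1, the partner of Slc7a9, was not tested, with at most 12 counts in a library.

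Large neutral amino acid carriers move leucine, phenylalanine and other bulky amino acids, and the 3 tested members of this class changed in both directions. Slc7a5 (LAT1), the light chain that takes up leucine in exchange for glutamine, was at 214, 214.5 and 181 CPM in the controls, against 102, 143 and 124 CPM after knockdown. Its groups did not overlap, and its knockdown libraries were spread more widely than those of most other members. The fitted log2 difference was -0.72 (SE 0.0815, edgeR adjusted p 6.80e-08), with the mean at 60.6% of the control level. Slc43a1 (LAT3), a carrier of the same substrates that needs no heavy chain, was at 13.9, 19.0 and 13.1 CPM in the controls, against 8.26, 7.47 and 6.72 CPM after knockdown. Control replicate 2 was the highest, and all knockdown libraries were lower than all controls. On the log2 scale the change was -1.03 (SE 0.14, edgeR adjusted p 1.11e-06). Slc43a2 (LAT4), the close relative of Slc43a1, went the other way. It was at 37.4, 40.4 and 38.3 CPM in the controls, against 62.7, 69.2 and 62.0 CPM after knockdown, with no overlap. That gave a log2 fold change of 0.74 (SE 0.0648; adjusted p 1.17e-09 in edgeR). Slc7a8 (LAT2), the fourth member of the class, had at most 7 counts in a library and was not tested.

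The cationic amino acid carrier Slc7a1 (CAT1), the main route for arginine and lysine into many cells, was among the members that fell most. It was at 113, 107 and 107 CPM in the controls, against 35.6, 49.6 and 46.3 CPM after knockdown. All knockdown values were less than 50 CPM and all control values more than 100 CPM. Its log2 fold change was -1.31 (SE 0.0792; adjusted p 2.57e-12 in edgeR). Its relatives Slc7a2 and Slc7a3 and the less understood Slc7a4 and Slc7a14 had at most 10 counts in a library and were not tested.

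Cationic-neutral exchangers swap arginine or lysine for neutral amino acids. Slc7a6 (y+LAT2), which pairs with Slc3a2 and exports arginine in return for glutamine or leucine with sodium, was at 69.0, 69.6 and 74.0 CPM in the controls, against 34.1, 33.2 and 33.6 CPM after knockdown. The knockdown libraries lay close together, with an SD of 0.428 CPM, and far below the controls. This was a log2 fold change of -1.07 (SE 0.0615; adjusted p 1.10e-12 in edgeR). The gene next to it, Slc7a6os, is placed beside but not across Slc7a6 in the RefSeq gene table and had a log2 fold change of -0.39 (SE 0.0628). Slc7a7 (y+LAT1), which has the same transport activity, was not called at 0.05 (SE 0.177). Its sign turned without control replicate 2 (-0.11) and with an offset for genomic span (-0.07). Slc7a9, the light chain of Slc3a1, which takes up cationic amino acids and cystine without sodium, was not called at 0.48 (SE 0.394) on 5 to 16 counts per library.

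The sodium-dependent exchangers Slc1a4 (ASCT1) and Slc1a5 (ASCT2) both carry small neutral amino acids, and Slc1a5 also takes up glutamine. Slc1a5 had the lowest log2 fold change of all tested members. It was at 191, 190.1 and 176 CPM in the controls, against 57.0, 66.1 and 60.6 CPM after knockdown. The groups were far apart, and the knockdown mean was 33.0% of the control mean. The fitted log2 difference was -1.60 (SE 0.0586, edgeR adjusted p 5.23e-16). Slc1a4 was at 78.8, 80.5 and 75.7 CPM in the controls, against 68.7, 80.2 and 65.4 CPM after knockdown, so the groups overlapped through knockdown replicate 2. It was not called (log2 fold change -0.13, SE 0.066, edgeR adjusted p 0.0856), but was called lower without knockdown replicate 2 (-0.22) and with the genomic span offset (-0.20).

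Among the carriers of acidic amino acids, only the glutamate transporter Slc1a3 (GLAST) had enough counts to be tested. It was at 28.6, 25.3 and 30.9 CPM in the controls, against 16.6, 20.3 and 18.4 CPM after knockdown. The groups did not overlap. On the log2 scale the change was -0.62 (SE 0.0935, edgeR adjusted p 4.64e-06). The glutamate carriers Slc1a1 and Slc1a2 had at most 5 and 8 counts in a library, Slc1a7 at most 1, and Slc1a6 and Slc7a13 had 0 counts in all 6 libraries.

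**Figure D2:**
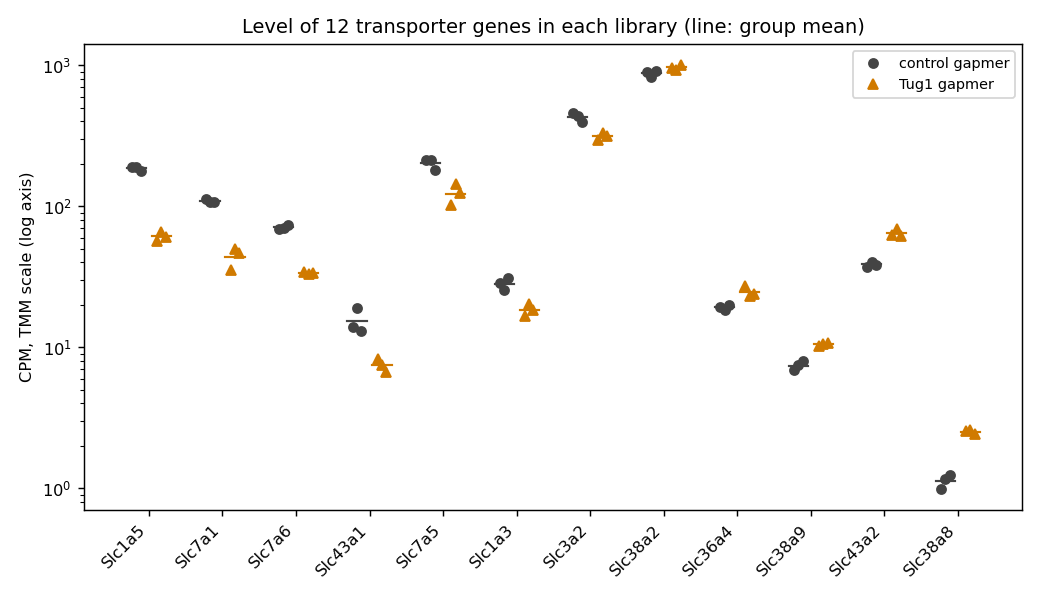
Level in CPM on the TMM scale (log axis) of 12 transporter genes (x axis) in each control (circles) and Tug1 gapmer (triangles) library, with a line at each group mean. Every gene shown is a called member, and the groups did not overlap for any of the 14 called members. The lack of overlap here thus follows from the choice of genes. Slc1a5 went from 176 to 191 CPM in controls to 57.0 to 66.1 CPM after knockdown.

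Among the 7 members that fell, knockdown replicate 1 was the lowest of the 3 knockdown libraries for 5 and knockdown replicate 2 the highest for 5. For Slc7a6 and Slc43a1 it was otherwise. The libraries of a group thus differed among themselves for several carriers at once, by less than the distance between the group means.

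System A carriers use sodium to take up alanine, glutamine and other small neutral amino acids. Slc38a2 (SNAT2), known for its rise when amino acids are short, was at 895, 827 and 910.3 CPM in the controls, against 963, 932 and 1001 CPM after knockdown. The groups did not overlap, but the lowest knockdown library was close to the highest control. That gave a log2 fold change of 0.14 (SE 0.0449; adjusted p 0.0108 in edgeR), and the call was lost without control replicate 2 (0.09, edgeR adjusted p 0.0994). Slc38a1 (SNAT1) at 0.21 (SE 0.129) and Slc38a4 (SNAT4) at -0.17 (SE 0.0984) were not called. Slc38a4 was called lower with the genomic span offset (-0.29). For system N, which carries glutamine and histidine, Slc38a3 was not called at 0.24 (SE 0.252) on 24 to 37 counts per library, and Slc38a5 had at most 1 count.

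The remaining SLC38 members held 4 of the 7 rises. Slc38a9, the lysosomal arginine sensor that signals to mTORC1, was at 6.90, 7.43 and 7.94 CPM in the controls, against 10.2, 10.5 and 10.8 CPM after knockdown. The groups did not overlap. Its log2 fold change was 0.50 (SE 0.124; adjusted p 0.00132 in edgeR). Slc38a10 rose by 0.21 (SE 0.0549) and Slc38a6 by 0.38 (SE 0.0788). With the genomic span offset Slc38a10 was no longer called (0.12, edgeR adjusted p 0.0591). Slc38a6 at 0.20 and Slc38a9 at 0.35 were still called with it. Trmt5 overlaps Slc38a6 on the other strand in the gene table and had a log2 fold change of 0.34 (SE 0.1). Use of strand in counting was not given in the sources used here. Reads of the shared stretch thus cannot be told apart, and the rise of Slc38a6 carries this limit. Slc38a7 (SNAT7), which exports glutamine from lysosomes, was not called at 0.11 (SE 0.0567, edgeR adjusted p 0.0837). It was called higher when libraries were scaled by their totals (0.17) and with the genomic span offset (0.16). Slc38a11 had at most 1 count.

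Slc38a8, a sodium-dependent carrier best known from the nervous system and eye, had the highest log2 fold change of the tested members, at a low level. It had 13, 15 and 16 counts in the controls, against 35, 35 and 32 counts after knockdown. On the CPM scale the means were 1.13 ± 0.121 and 2.51 ± 0.0884 (SD, n = 3), respectively. Its log2 fold change was 1.15 (SE 0.267; adjusted p 0.000726 in edgeR). In the gene table Necab2, a calcium-binding protein gene, overlaps Slc38a8 on the other strand. Necab2 had 5, 6 and 7 counts in the controls, against 77, 96 and 75 counts after knockdown. Use of strand in counting was not given in the sources used here, so reads of these overlapping genes cannot be told apart, and the rise of Slc38a8 is uncertain.

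The SLC36 family was classed as proton-coupled carriers, after members that move small amino acids with protons, in part out of lysosomes. The class name need not hold for every member, Slc36a4 among them. Slc36a4 (PAT4) was at 19.2, 18.4 and 20.1 CPM in the controls, against 27.1, 22.9 and 23.8 CPM after knockdown. The groups did not overlap, and knockdown replicate 1 stood highest. This was a log2 fold change of 0.36 (SE 0.0881; adjusted p 0.00124 in edgeR). Slc36a1 (PAT1) was at 39.0, 46.8 and 46.4 CPM in the controls, against 39.6, 39.4 and 39.6 CPM after knockdown. Control replicate 1 lay with the knockdown libraries, and Slc36a1 was not called (-0.16, SE 0.0725, edgeR adjusted p 0.0638). It was called lower without control replicate 1 (-0.24) and with the genomic span offset (-0.21). Slc36a2 and Slc36a3 had at most 2 counts in a library.

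Of the 19 members that were not tested, 3 (Slc1a6, Slc7a2 and Slc7a13) had 0 counts in every library, and 10 more had at most 3 counts in any library. The other 6 (Slc1a1, Slc1a2, Slc3a1, Slc7a4, Slc7a8 and Slc7a14) reached 5 to 12 counts. The untested genes included all members of the small neutral light chain class (Slc7a10, Slc7a12 and Slc7a15) and Slc43a3, a purine base carrier. At this depth 3 counts corresponded to 0.217 to 0.232 CPM, a limit that covers counting error only.

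Ratios of counts within a library show where related carriers moved apart, since library scaling cancels in them. A total of 9 ratios were computed, chosen after the values had been seen. The ratio of Slc1a5 to Slc1a4 was 2.42, 2.36 and 2.33 in the controls, against 0.83, 0.825 and 0.927 after knockdown. The ratio of Slc43a1 to Slc43a2 was 0.372, 0.471 and 0.342 in controls and 0.132, 0.108 and 0.108 after knockdown, in the same order. In both pairs the knockdown ratios lay far below the control ratios. Against the shared heavy chain Slc3a2, the ratio of Slc7a6 went from 0.165 ± 0.0183 to 0.108 ± 0.00767 and that of Slc7a5 from 0.471 ± 0.0185 to 0.392 ± 0.0423 (SD, n = 3). Both of these light chains thus fell further than the heavy chain. The ratio of Slc7a7, the third tested light chain of Slc3a2, went the other way, from 0.0115 ± 0.00293 to 0.0163 ± 0.00074 (SD, n = 3), without overlap. The ratio of Slc38a2 to Slc38a1 was 91.9, 101 and 123 in the controls, against 99.1, 93.3 and 104 after knockdown, so the groups overlapped. The exact permutation p (two-sided) was 0.1 for 8 ratios, the smallest that 3 against 3 libraries allow, and 0.7 for Slc38a2 to Slc38a1, or 0.113 and 0.7 adjusted over the 9 ratios by the Benjamini-Hochberg method.

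**Figure D3:**
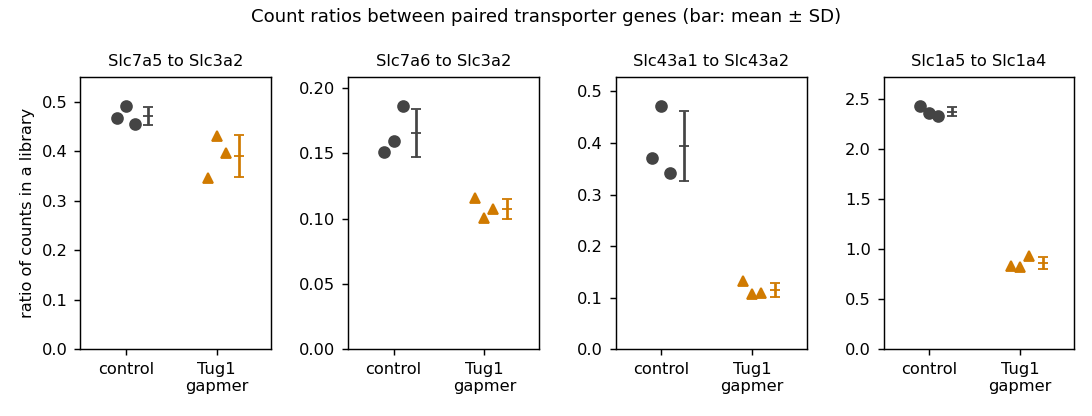
Ratio of counts within each library (y axis, from 0) for 4 gene pairs, with control libraries as circles, Tug1 gapmer libraries as triangles and the mean ± SD beside them. The groups do not overlap in any of the 4 panels, and the ratio of Slc1a5 to Slc1a4 goes from 2.33 to 2.42 in controls to 0.825 to 0.927 after knockdown. The panels were picked from 9 ratios. Those of Slc7a7 to Slc3a2, which rose, and of Slc38a2 to Slc38a1, where the groups overlapped, are among the ratios not shown.

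RefSeq promoter windows of GRCr8, from 250 bases before to 50 after the annotated gene start, were found by symbol for 31 of the 41 members. They were searched on both strands for TGATGNAA, the core of the composite element bound by ATF4 with C/EBP factors, and for CACGTG, the E-box bound by MYC and TFEB. The motifs can share end letters, but no matches of both overlapped in a member. Of 33469 windows of all genes, 3.98% held TGATGNAA and 6.42% CACGTG, and of the 10529 windows of tested genes 2.07% and 9.31%. Among the members that fell, 6 had a window, of which 1 held TGATGNAA and 2 CACGTG. Among the members that rose, 6 had a window, of which 0 held either. Such small counts were not tested and cannot show a difference between these groups. Matches also occurred in members that were not called, with TGATGNAA for Slc1a4 and Slc38a1 and CACGTG for Slc1a4, Slc36a1 and Slc38a7. The 3 stretches shown are those of called members, with the match in capitals, 5′ to 3′ on the strand of the gene. The match began 30 bases before the gene start in Slc7a1 (chr12:11664433-11664487, plus strand), 179 in Slc7a5 (chr19:66872561-66872616, minus strand) and 91 in Slc43a1 (chr3:90327206-90327261, plus strand). A match is a description of letters and no evidence of binding.
Slc7a1: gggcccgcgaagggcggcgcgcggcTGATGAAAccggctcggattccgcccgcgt
Slc7a5: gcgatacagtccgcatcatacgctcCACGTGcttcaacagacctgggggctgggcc
Slc43a1: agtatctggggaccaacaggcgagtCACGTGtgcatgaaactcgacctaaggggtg

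Genes of the amino acid response pathway were read from a list of 20 factors and classic targets outside the transporters. The list also holds the reticulum stress kinase gene Eif2ak3 and its relatives Eif2ak1 and Eif2ak2, so it covers more than amino acid shortage. All 20 were tested, and 14 fell and 4 rose, with a median log2 fold change of -0.34. Of all tested genes 61.7% were called (30.9% lower and 30.8% higher), against 90.0% of this list. The 4 with the smallest p were Eif2ak3, which encodes the reticulum stress kinase PERK (1.10, SE 0.0777), the asparagine synthetase Asns (-0.76, SE 0.0536), the factor Atf5 (0.66, SE 0.0475) and the factor Atf3 (-1.16, SE 0.113). Asns went from 160.2 ± 3.37 to 94.8 ± 6.02 CPM (SD, n = 3). Atf4 itself, named after its value was seen, went from 515 ± 7.61 to 435 ± 11.2 CPM (SD, n = 3), or by -0.24 on the log2 scale (SE 0.0419, edgeR adjusted p 2.82e-05).

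Enzymes that make or use the carried amino acids were read from a list of 28, of which 23 were tested, 14 fell and 7 rose (median log2 fold change -0.23). Asns is in this list as well. The 4 with the smallest p were Odc1, which makes the polyamine precursor putrescine from ornithine (-1.05, SE 0.045), the glutamine synthetase Glul (-1.12, SE 0.0516), the proline synthesis enzyme Aldh18a1 (-0.98, SE 0.0545) and Bckdha, a subunit of the complex that breaks down branched-chain amino acids (1.36, SE 0.0789). Aldh18a1 went from 199 ± 10.03 to 101 ± 5.81 CPM and Bckdha from 16.2 ± 1.10 to 41.4 ± 0.963 CPM (SD, n = 3). Of the further subunits of that complex on the list, named after their values were seen, both rose, Bckdhb by 1.42 (SE 0.143) and Dbt by 0.77 (SE 0.0746). Other branched-chain amino acid genes of the list went both ways. Bckdk was called higher (0.20, SE 0.0591), while Bcat1 (-0.10, SE 0.0424) and Bcat2 (-0.29, SE 0.0756) were called lower.

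Genes that report amino acid supply to mTORC1 were read from a list of 38, of which 34 were tested, 16 rose and 7 fell (median log2 fold change 0.12). As 61.7% of all tested genes were called, the 67.6% of this list was near that share. The 4 with the smallest p were the sestrin Sesn3 (0.50, SE 0.0454), the lysosomal GTPase gene Rragc (-0.48, SE 0.0446), the GATOR1 subunit Nprl3 (1.19, SE 0.111) and the folliculin partner Fnip2 (0.62, SE 0.0616). Of 24 amino acid carriers of other families, 17 were tested, 6 rose and 5 fell (median 0.05). Near the share of all tested genes, 64.7% of these 17 were called. The 4 with the smallest p were the glycine carrier Slc6a9 (1.14, SE 0.0756), the vesicular glutamate carrier Slc17a6 (-2.40, SE 0.196), the lysosomal cationic amino acid exporter Slc66a1 (0.70, SE 0.0715) and the mitochondrial glutamate carrier Slc25a22 (-0.57, SE 0.0681). Slc17a6 went from 7.32 ± 0.101 to 1.38 ± 0.0894 CPM (SD, n = 3). Each list thus held called genes in both directions, as the transporter families did. The lists are described by counts and medians, and no difference between lists was tested.

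**Figure D4:**
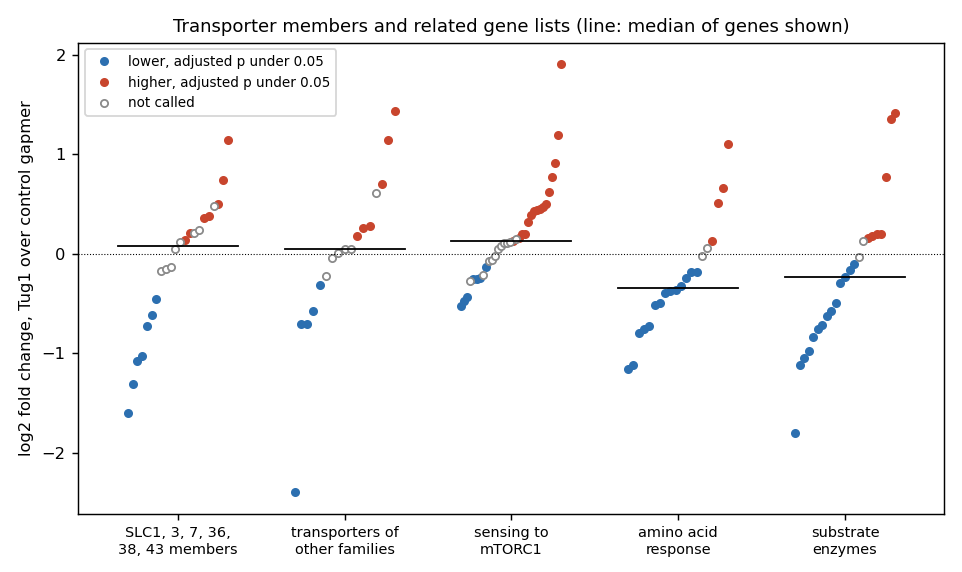
Log2 fold change (y axis) of each tested gene of the transporter families and of 4 related lists (x axis), coloured by call, with a line at the median of each list. The medians are 0.08 for the transporter members, -0.34 for the amino acid response list and -0.23 for the enzymes.

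**Figure D5:**
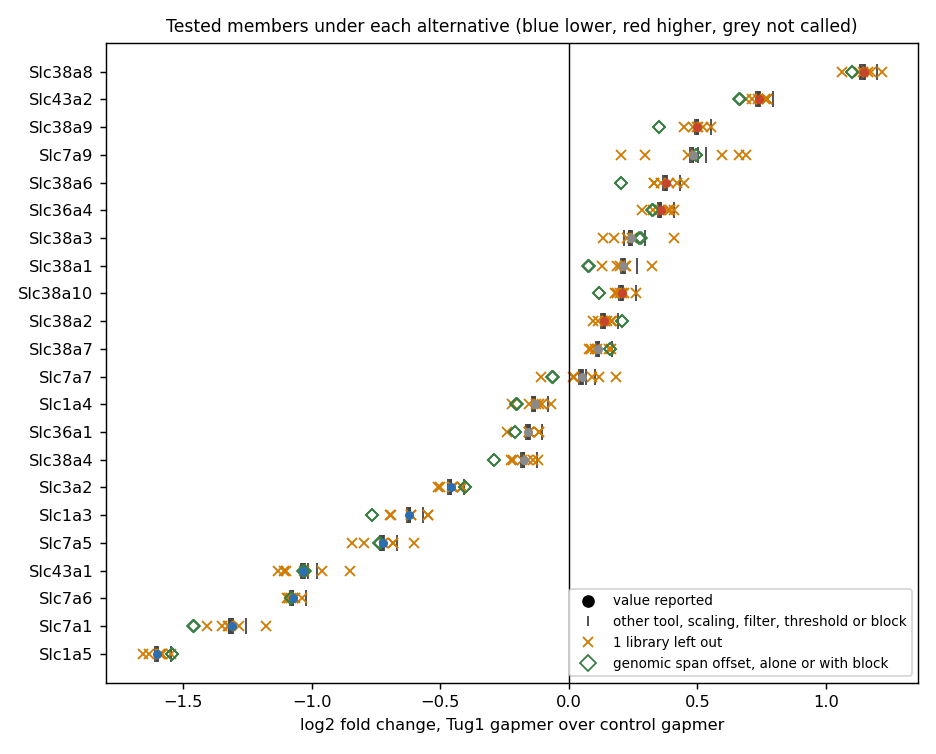
Log2 fold change (x axis) of the 22 tested members (y axis) as reported and under each alternative, with crosses for fits without 1 library and diamonds for the genomic span offset. Values on both sides of 0 occur for Slc7a7 alone among these members, from -0.11 to 0.18.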

How the data were processed

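Poly-A RNA was sequenced from 6 libraries, made per the labels' protocols from 500 ng of RNA with integrity numbers of at least 9. The authors deposited raw counts per gene, whole numbers without scaling or pooling, and 0 columns lay outside the 6 libraries. The submitters' processing notes name FastQC 0.11.7, fastp 0.14.1 and STAR 2.5. Counting tool, genome build, annotation and use of strand were not given in the sources used here.

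The analysis used edgeR 4.0.16 under R 4.3.3: expression filter (minimum count 10, minimum total 15), TMM, and the two-sided quasi-likelihood test on all 14216 remaining genes, with Benjamini-Hochberg adjustment and a threshold of 0.05. SEs were derived from the fold change and its F statistic. Nothing in the labels says that replicates were separate cultures, so p-values measure the spread between these samples, which may be technical. Replicates differed by more than counting noise (chi-square per degree of freedom 2.18 to 3.60).

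Members, classes, lists and tests were chosen with earlier results of these data known. Library values are given for called members whose log2 change was 0.5 or more in size, or else for the called member of highest mean level in a class. Slc1a4 and Slc36a1, which were not called, are also shown by library, chosen after their values were seen. Related lists name the 4 called genes of smallest p. Alternatives were DESeq2 size factors, library totals, DESeq2 1.42.0 (Wald test), limma-voom (limma 3.58.1), other filters, a threshold of 0.01, the replicate number as a block, an offset for genomic span (lowess span 0.3, RefSeq gene table of GRCr8), and each library left out in turn. In simulated counts of 14028 tested genes, 97 were changed by an absolute log2 value of 0.5 and 98 by 1. Of these, 72.2% and 90.8% were recovered, respectively. In the data 61.7% of tested genes were called, far more than were changed in the simulation, so these rates need not hold for the data.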

Additional observations from a re-analysis of the deposited data

How the results depend on the processing

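Over 16 alternatives, all planned, the number of called members ran from 13 (adjusted p under 0.01) to 17 (genomic span offset), against 14; the 6 fits that each dropped a library gave 14 to 15. Members called higher numbered 6 to 8 and members called lower 7 to 10. Over all tested genes 7353 to 8987 were called, or 8128 to 8410 in the 6 fits that dropped a library, and Tug1 was at -2.22 to -2.07 throughout. Of 22 tested members, 15 kept their direction and call in every alternative that tested them, and 7 did not. Over 351 combinations of member and alternative, 4 lost a call, 15 gained one and 3 changed sign. The changes of sign were all in Slc7a7, at -0.0669 with the genomic span offset, -0.0611 with that offset and the replicate block, and -0.109 without control replicate 2, and it was not called in any of them. Over the fits that dropped a library it ran from -0.109 to 0.182. What caused these changes was not tested.

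The labels state no pairing by replicate number. Across genes, deviations of same-numbered libraries had correlations of -0.00531, 0.0298 and 0.027. Those of differently numbered libraries ran from -0.0323 to 0.00586. Such small correlations cannot settle whether the libraries were paired. With the replicate block 16 members were called, Slc1a4 (-0.14, edgeR adjusted p 0.0425) and Slc38a7 (0.12, edgeR adjusted p 0.0422) in addition, and 8848 of all genes. Leaving out a library changed the call of Slc38a2 (control replicate 2), Slc1a4 (knockdown replicate 2), Slc36a1 (control replicate 1) and Slc38a7, called at 0.17 without control replicate 2 and at 0.16 without knockdown replicate 1. With library totals the median of all genes lay at 0.06, and no tested member changed sign. Depth limits Slc7a9, Slc38a3 and Slc38a8, with 5 to 37 counts per library.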
